A study of Mus musculus with 10 samples.

Results

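The genes described here encode filaggrin-like proteins of the upper epidermis and the enzymes that cut or modify them. They were chosen by gene symbol and not by a threshold on any measured value, but with earlier results of these data known. The rule names 9 genes, of which 8 have a row among the 20611 genes of the tables: the filaggrin family genes Flg2, Hrnr and Rptn, and the enzyme genes Asprv1, Casp14, Padi1, Blmh and Capn1. Flg itself was not analysed here. All 8 passed the filter on low counts and were tested.

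RNA was measured in whole mouse skin by polyA RNA-seq, with 5 Klk6+ mice (3 males and 2 females) set against 5 mice labelled WT (3 males and 2 females). Klk6+ mice carried Tetos-Klk6, which encodes Myc/His-tagged murine Klk6, a kallikrein-related serine protease, together with the K5-tTA driver, whose bovine Keratin 5 promoter is active in epidermal keratinocytes and in some other stratified squamous epithelia. The transgene is on without doxycycline. The WT group could hold wild-type littermates or littermates with either transgene alone, which does not express Klk6, and the labels do not say which mouse was which. Both lines had been backcrossed to C57BL/6, with mice of the F4 generation and onward used. Doxycycline chow was returned to Klk6+ mice at 10 to 11 weeks, and tissue was taken at 14 to 16 weeks of age. The labels do not say whether the WT mice received that chow, and so genotype and chow cannot be told apart. Each library came from a separately labelled mouse.

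Total counts ran from 32798416 to 41970272 in the WT libraries and from 26521019 to 39796511 in the Klk6+ libraries, and no pair of libraries held identical values. Klk6 stood at 12.7 to 26.5 CPM (counts scaled to library size) in WT and at 10293 to 14773 in Klk6+, so every library matched its label. The stated return of doxycycline came before tissue was taken, and Klk6 was still high in every Klk6+ library. The reason for this was not tested. In whole skin, fewer cells of a type and less RNA per cell cannot be told apart. The summed CPM of 11 keratinocyte genes was 5228 to 13322 in WT and 21639 to 30618 in Klk6+, with 8 of the 11 called higher. The summed CPM of 6 skeletal muscle genes was 35609 to 55553 in WT and 2501 to 4776 in Klk6+, and all 6 were called lower. Every tested gene of the fibroblast (6), adipocyte (5), endothelium (4) and macrophage (5) lists was called lower, as were 3 of 4 T cell genes, and every tested neutrophil (4) and melanocyte (4) gene and 7 of 8 sebaceous gland genes were called higher. Over all genes tested, 37.7% were called higher and 35.1% lower. The part of this tissue makeup in the differences below was not tested.

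Filaggrin family proteins are made as long, repetitive precursors in the granular layer, where an S100-like domain at their start is joined to tandem repeats. As keratinocytes cornify, filaggrin precursors lose their phosphates, are cut into repeat units that bundle keratin, have arginines turned into citrulline, and are finally degraded to free amino acids that hold water in the stratum corneum. Asprv1, Casp14, Padi1, Capn1 and Blmh encode proteins that act along this route, the last of them at the final release of amino acids.

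The 3 family genes lie in a cluster on chromosome 3 of GRCm38, all on the plus strand, in a stretch of 202 kb: Flg2 at chr3:93197278-93221391, Hrnr at chr3:93319749-93333570 and Rptn at chr3:93393699-93399442. Flg2 and Hrnr are 98.4 kb apart, and Hrnr and Rptn are 60.1 kb apart. Their coding sequence repeats itself, which bears on how 50-base reads can be placed, so the most repeated 50-base stretch of each is shown, 5′ to 3′ from the GENCODE transcript, in lower case because no motif is marked.
Hrnr: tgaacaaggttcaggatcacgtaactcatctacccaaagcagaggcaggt
Flg2: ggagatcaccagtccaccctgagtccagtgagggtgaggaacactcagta
Rptn: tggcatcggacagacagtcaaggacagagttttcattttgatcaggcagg
The Hrnr stretch occurs 16 times in its transcript, with copies as near as 513 bases, the Flg2 stretch occurs 10 times, at 234 bases or more, and the Rptn stretch 3 times, at 108 bases or more. Of all 50-base windows, 69.1% of those in the Hrnr transcript occur more than once in it, against 26.3% in Flg2 and 5.49% in Rptn. None of these windows occurs in the transcript of another gene, so reads from them can be placed in more than 1 position but belong to 1 gene. No source used here states how such reads were treated, and Hrnr values are the most exposed to it.

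The 3 genes moved in different directions despite their nearness, so the sequence at each start is shown, from 250 bases before to 50 bases after it (RefSeq, GRCm38.p6, plus strand, 5′ to 3′). Flg2 is chr3:93197023-93197322, Hrnr is chr3:93319499-93319798 and Rptn is chr3:93393449-93393748. Capitals mark matches on either strand to TGANTCA, to TATAAA, the TATA box, or to CACCC, the core bound by KLF and SP factors. TGANTCA is a loose form of the AP-1 motif that takes any base at its centre.
Flg2: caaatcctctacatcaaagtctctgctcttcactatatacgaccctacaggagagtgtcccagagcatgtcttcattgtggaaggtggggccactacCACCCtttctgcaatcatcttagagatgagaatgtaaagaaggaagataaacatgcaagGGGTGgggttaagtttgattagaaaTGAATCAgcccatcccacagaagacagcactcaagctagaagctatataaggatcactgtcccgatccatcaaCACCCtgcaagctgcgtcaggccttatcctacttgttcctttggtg
Hrnr: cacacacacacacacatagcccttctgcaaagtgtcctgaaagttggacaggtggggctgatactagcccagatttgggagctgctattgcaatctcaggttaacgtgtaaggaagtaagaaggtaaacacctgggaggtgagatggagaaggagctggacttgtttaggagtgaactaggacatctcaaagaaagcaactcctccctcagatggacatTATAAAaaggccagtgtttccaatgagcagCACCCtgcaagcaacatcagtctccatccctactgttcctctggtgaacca
Rptn: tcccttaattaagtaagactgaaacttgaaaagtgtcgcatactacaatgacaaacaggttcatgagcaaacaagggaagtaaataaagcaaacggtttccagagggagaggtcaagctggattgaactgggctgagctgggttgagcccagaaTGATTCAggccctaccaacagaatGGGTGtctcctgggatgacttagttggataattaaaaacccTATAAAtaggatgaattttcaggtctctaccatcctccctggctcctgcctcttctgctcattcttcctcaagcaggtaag
TGANTCA was found in Flg2 as TGAATCA, 69 bases before the start, and in Rptn as TGATTCA, 96 bases before it. The TATA letters were found 31 bases before the start in both Hrnr and Rptn. Only the exact letters were searched, so the tatataa stretch before the Flg2 start was not marked. CACCC was found 3 times in Flg2 and once each in Hrnr and Rptn. Of 32851 promoter windows of this length, 7.81% hold TGANTCA, 13.6% the TATA letters and 57.5% CACCC. These matches describe the letters only. Flg2, which fell, and Rptn, which rose, both hold a match to TGANTCA, and whether AP-1 binds at either was not tested.

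The comparison of Klk6+ with WT skin asks how the family and its processing genes stand when keratinocytes carry the Klk6 transgene. Flg2 fell, while Hrnr, Rptn, Casp14, Asprv1, Padi1 and Blmh rose, and Capn1 did not pass the test. That is 7 of 8 genes called at an adjusted p under 0.05 (edgeR quasi-likelihood test, sex as a covariate, Benjamini-Hochberg over 14861 genes), 6 higher and 1 lower. Over all genes tested 72.8% were called, 37.7% higher and 35.1% lower, so a call by itself sets no gene apart here, and the sizes carry the description. The median log2 fold change of the 8 genes was 2.65, against 0.04 over all genes. The 2 groups did not overlap in CPM for 7 of the 8 genes, 6 higher in Klk6+ and 1 lower, against 57% of all genes tested, 30.1% higher and 27% lower.

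Flg2 encodes filaggrin-2, a filaggrin-like protein that is also part of the cornified layer. Its level in WT libraries 1 to 5 was 968, 854, 611, 474 and 343 CPM. In Klk6+ libraries 1 to 5 it was 20.2, 26.1, 21.3, 9.79 and 85.8 CPM. Every WT library lay above every Klk6+ library, and the highest Klk6+ value, in Klk6+ 5, was still well below the lowest WT value. Klk6+ differed from WT by -4.35 ± 0.63 on the log2 scale (SE, adjusted p = 0.00013, edgeR), or 20.5-fold lower. Without Klk6+ 5 it was -5.30.

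Rptn encodes repetin, which carries glutamine-rich repeats and is an envelope precursor. In WT libraries 1 to 5 it stood at 30.4, 33.5, 19.8, 13.9 and 12 CPM, and in Klk6+ libraries 1 to 5 at 835, 1091, 1106, 586 and 1640.4 CPM. It was low in all WT libraries and high in all Klk6+ libraries. It rose by 5.67 ± 0.39 on the log2 scale (SE, adjusted p = 1.15e-06, edgeR), or 50.9-fold, the largest difference among the 8 genes.

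Hrnr encodes hornerin, the family member whose transcript repeats itself most here. In WT libraries 1 to 5 it stood at 243, 299.9, 165, 87.0 and 62.2 CPM, and in Klk6+ libraries 1 to 5 at 416, 504, 625, 319 and 1687 CPM. The lowest Klk6+ library was only slightly above the highest WT library, and Klk6+ 5 was far above the rest. The log2 fold change was 2.14 ± 0.60 (SE, adjusted p = 0.0088, edgeR), or 4.40-fold. It fell to 1.37 without Klk6+ 5, where it was still called.

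**Figure D1:**
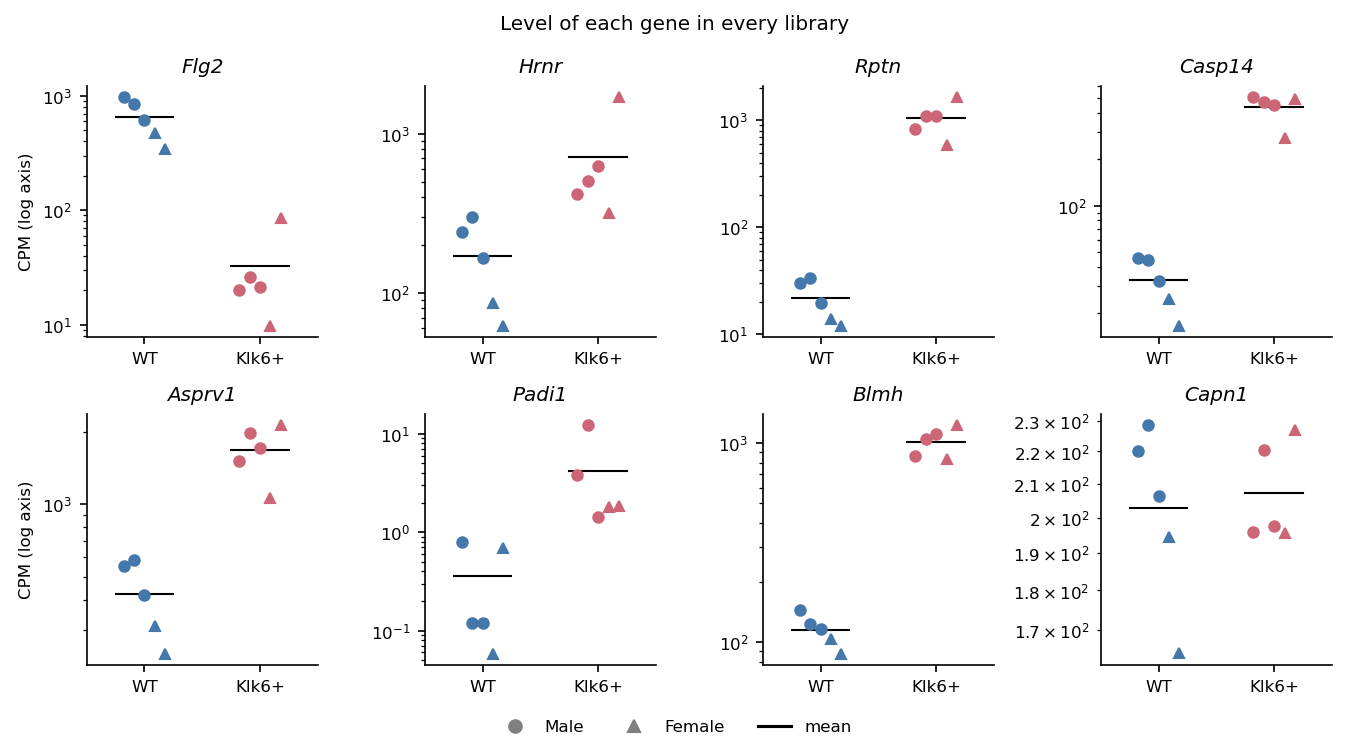
Level of each of the 8 genes in every library, in CPM on a log axis that differs between panels, by genotype; circles are males, triangles females and lines group means. Flg2 is the gene whose Klk6+ libraries all lie below the WT libraries, 6 genes lie above, and Capn1 overlaps.

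The shares of Flg2, Hrnr and Rptn among themselves turned over. Levels were compared between the 3 genes as FPKM, which divides by gene length. Each gene was given as a share of the summed FPKM of the 3. Flg and the related genes Tchh, Tchhl1 and Crnn were not part of that sum. Tchh ran from 1.14 to 18.0 FPKM in WT and from 2.09 to 220 FPKM in Klk6+, highest in Klk6+ 2. In WT, Flg2 made up 80.8% ± 3.5 (SD, n = 5), Hrnr 14.1% ± 3.4 and Rptn 5.10% ± 0.44. In Klk6+, Flg2 made up 1.13% ± 0.48, Hrnr 18.4% ± 5.1 and Rptn 80.4% ± 5.6. Flg2 was the largest share in all 5 WT libraries, at 75.5% to 84.3%, and Rptn in all 5 Klk6+ libraries, at 70.6% to 84.2%. The summed FPKM was 93.3 ± 39.5 (SD, n = 5) in WT, from 47.2 to 141, and 293 ± 137 in Klk6+, from 162 to 520.5, so the groups did not overlap in the sum either. The Hrnr share was highest in Klk6+ 5, at 27.4%, while the other Klk6+ libraries held 14.7% to 17.5%.

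**Figure D2:**
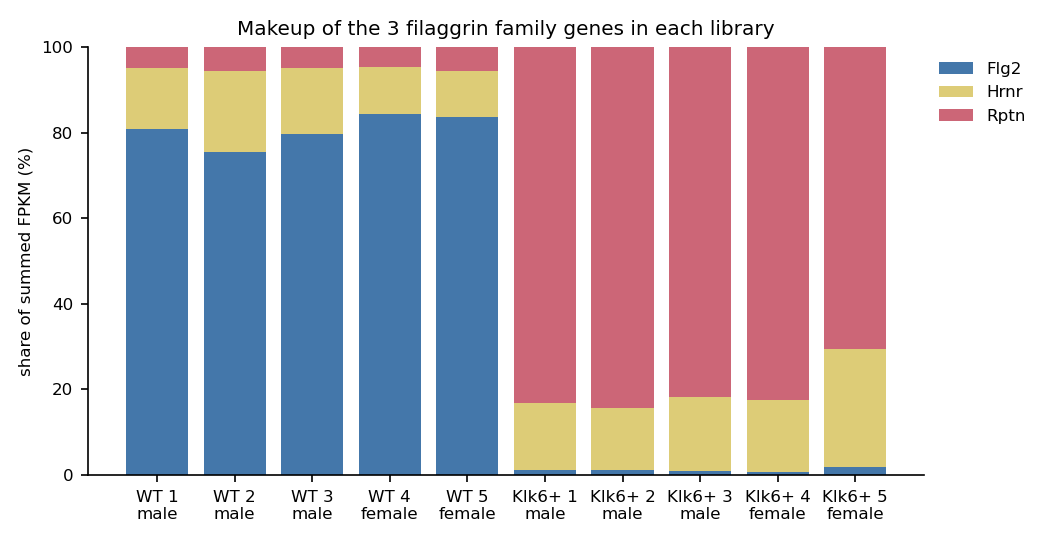
Share of Flg2, Hrnr and Rptn in their summed FPKM, in percent, for each library with its sex; each bar is 1 mouse. Flg2 fills 75.5% to 84.3% of each WT bar, and Rptn 70.6% to 84.2% of each Klk6+ bar.

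Each gene was also set against Krt1, the suprabasal keratin of differentiating keratinocytes, within the same library, which cancels the library's scaling. Krt1 itself rose, by 2.78 on the log2 scale (adjusted p = 1.11e-05, edgeR). Krt10, Krt2 and Krt77, the other keratins among the granular and cornified layer genes below, fell by 0.54, 4.08 and 5.87. The ratios to Krt1 therefore speak for Krt1 alone, and ratios to those other keratins were not taken. In WT libraries 1 to 5, Flg2 counts were 57.0%, 55.9%, 63.6%, 87.5% and 101% of Krt1 counts. In Klk6+ libraries 1 to 5 they were 0.228%, 0.35%, 0.383%, 0.254% and 1.6%. The Klk6+ minus WT difference in the log2 ratio to Krt1 was -7.41 for Flg2, 2.82 for Rptn, 1.02 for Casp14 and -2.76 for Capn1. Each of these 4 had a two-sided exact permutation p of 0.00794, the smallest that 5 against 5 libraries allow (adjusted p = 0.0159 over the 8 ratios). Rptn and Casp14 therefore stood higher relative to Krt1, and Flg2 and Capn1 lower.

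Asprv1 fell relative to Krt1 by 0.77 on the log2 scale (exact permutation p = 0.0238, adjusted p = 0.0381), and leaving out any of 8 of the 10 libraries raised the adjusted p above 0.05, to as much as 0.0889. Relative to Hrnr its difference was 0.01 (exact permutation p = 0.952). The ratio of Hrnr to Krt1 differed by -0.79 on the log2 scale and did not pass (exact permutation p = 0.135), but without Klk6+ 5 it was -1.21, with an adjusted p of 0.0159. The ratios of Blmh (0.34) and Padi1 (0.97) to Krt1 did not pass, each with an exact permutation p of 0.381. Among the 3 family genes, Flg2 relative to Hrnr differed by -6.63 and Rptn relative to Hrnr by 3.61 on the log2 scale, both with an exact permutation p of 0.00794.

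Among the enzymes, Asprv1 encodes a retroviral-like aspartic protease that cuts profilaggrin, on chromosome 6 at chr6:86628164-86629710, in a single exon. Its level was 552, 584, 419.8, 311 and 239.6 CPM in WT libraries 1 to 5, and 1509.6, 1975, 1702, 1063 and 2127 CPM in Klk6+ libraries 1 to 5. All Klk6+ libraries lay above all WT libraries, with Klk6+ 4 the lowest of them. Asprv1 rose by 2.05 ± 0.24 on the log2 scale (SE, adjusted p = 2.66e-05, edgeR). By FPKM it was the highest of the 8 genes in all 10 libraries.

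Casp14 encodes caspase-14, the caspase of cornifying keratinocytes, which cuts filaggrin units into smaller pieces. It lies on the minus strand at chr10:78711991-78718294. Its level was 45.2, 44.2, 32.1, 24.6 and 16.5 CPM in WT libraries 1 to 5, and 507, 475, 449, 274 and 496 CPM in Klk6+ libraries 1 to 5. The groups were far apart, and within Klk6+ the library Klk6+ 4 was low. Casp14 rose by 3.82 ± 0.23 on the log2 scale (SE, adjusted p = 6.61e-07, edgeR), or 14.2-fold.

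Blmh encodes bleomycin hydrolase, an aminopeptidase of the last step, in which filaggrin peptides become free amino acids. It lies at chr11:76924809-76987379. Its level was 145, 124, 116, 104 and 87.8 CPM in WT libraries 1 to 5, and 866, 1049, 1111, 836 and 1235 CPM in Klk6+ libraries 1 to 5. The spread within each genotype was small beside the gap between them. The log2 fold change was 3.16 ± 0.16 (SE, adjusted p = 3.23e-07, edgeR), or 8.91-fold.

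Capn1 encodes the large subunit of calpain-1, a calcium-dependent protease of many cell types that has been linked with filaggrin breakdown. It lies on the minus strand at chr19:5988545-6015897. Its level was 220.2, 229, 206, 195 and 164 CPM in WT libraries 1 to 5, and 196, 220.5, 198, 196 and 227 CPM in Klk6+ libraries 1 to 5. The groups overlapped, and the log2 fold change was 0.04 ± 0.10 (SE, adjusted p = 0.742, edgeR). Its sign changed under 9 of the 22 alternative settings, between -0.09 and 0.07, so no direction is given. Of the Capn1 exon bases, 11.8% also lie in the gene Gm10814 on the other strand.

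Padi1 encodes a peptidylarginine deiminase, which turns arginine into citrulline. It lies on the minus strand at chr4:140812983-140845778. Its level was low throughout: 0.804, 0.12, 0.12, 0.0585 and 0.687 CPM in WT libraries 1 to 5, on 2 to 35 reads, and 3.83, 12.2, 1.42, 1.82 and 1.83 CPM in Klk6+ libraries 1 to 5. Every Klk6+ library lay above every WT library, with Klk6+ 2 far above the rest. The log2 fold change was 3.36 ± 0.84 (SE, adjusted p = 0.00429, edgeR), 2.62 without Klk6+ 2 (adjusted p = 0.00768), 4.12 without WT 5 and 1.002 on the log2(FPKM + 1) scale, which understates low genes. Of its exon bases, 32% also lie in the gene Gm13032 on the other strand. The library kit does not mark strand, so reads there cannot be told apart.

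**Figure D3:**
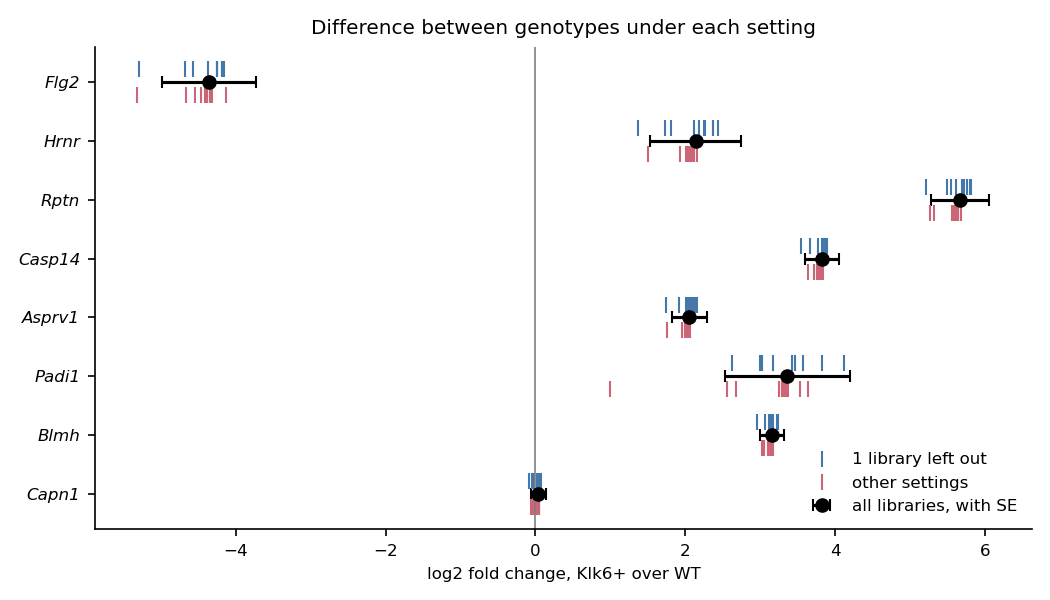
Log2 fold change of Klk6+ over WT for each gene: black points with SE bars use all 10 libraries, blue ticks leave out 1 library, red ticks are the other settings. Flg2 stays left of zero and Capn1 spans it, while Padi1 and Hrnr shift most among the genes called higher.

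By FPKM, the order of the 8 genes changed between genotypes. Flg2 ranked 2nd or 3rd in WT and 7th or 8th in Klk6+, Blmh moved from 4th to 2nd, and Rptn from 7th to 3rd or 4th. Padi1 was last in every library except Klk6+ 2, where Flg2 was. Neighbours in the WT order were close: mean FPKM was 74.6 ± 29.9 (SD, n = 5) for Flg2 and 60.5 ± 7.1 for Capn1, and these 2 exchanged places between WT libraries. Hrnr at 14.0 ± 8.1 and Casp14 at 13.1 ± 4.9 did so too. The same held in Klk6+ for Rptn at 230 ± 87 (SD, n = 5) and Casp14 at 178 ± 37.

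Padi1 moved apart from the other genes. Libraries of a genotype differ in their hair follicle RNA: the summed CPM of 12 hair shaft and inner root sheath genes was 259.9, 93.7, 50.5, 19.7 and 378 in WT libraries 1 to 5, and 643, 5382, 25.3, 1003 and 28.5 in Klk6+ libraries 1 to 5. Of these 12, 3 were called higher and none lower between genotypes, beside 37.7% and 35.1% of all genes. The groups of the sum overlapped. Deviations from the genotype mean were taken on log2(CPM + 0.1). Over the 10 libraries, which share their scaling, those of Padi1 had a Pearson r of 0.81 with those of the hair list, and the other 7 genes had r from -0.41 to -0.12. Klk6+ 3 and Klk6+ 5 had hair list values within the WT range. Padi1 stood at 1.42 and 1.83 CPM there, on 54 and 49 reads, and its WT maximum was 0.804. The part of hair follicle RNA in the Padi1 difference was not tested.

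Of the other deiminases, Padi3, known from the hair follicle, followed the hair list with r = 0.96. Its log2 fold change was 3.33 (adjusted p = 0.0159, edgeR), a call lost with limma-voom (adjusted p = 0.0800) and on log2(FPKM + 1) (adjusted p = 0.0615), and its groups overlapped. It was 1.79 without Klk6+ 2 and 4.03 without WT 5, called in both. Padi4 rose by 1.44 on the log2 scale, but its groups overlapped in CPM, with WT up to 11.3 and Klk6+ from 11.1. It stood at 2.22 in males and at 0.27 in females, where it was not called. Padi2 fell by 2.40 on the log2 scale. Padi2 stood at 30.6 to 58.1 CPM in WT and at 6.04 to 12.5 in Klk6+, so its groups did not overlap. Padi6 did not pass the count filter. With Padi1, 3 of the 4 deiminases tested were called higher and 1 lower, beside 37.7% and 35.1% of all genes. By FPKM Padi2 was the highest of the tested deiminases in all 5 WT libraries, and in every Klk6+ library it was below Padi4.

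**Figure D4:**
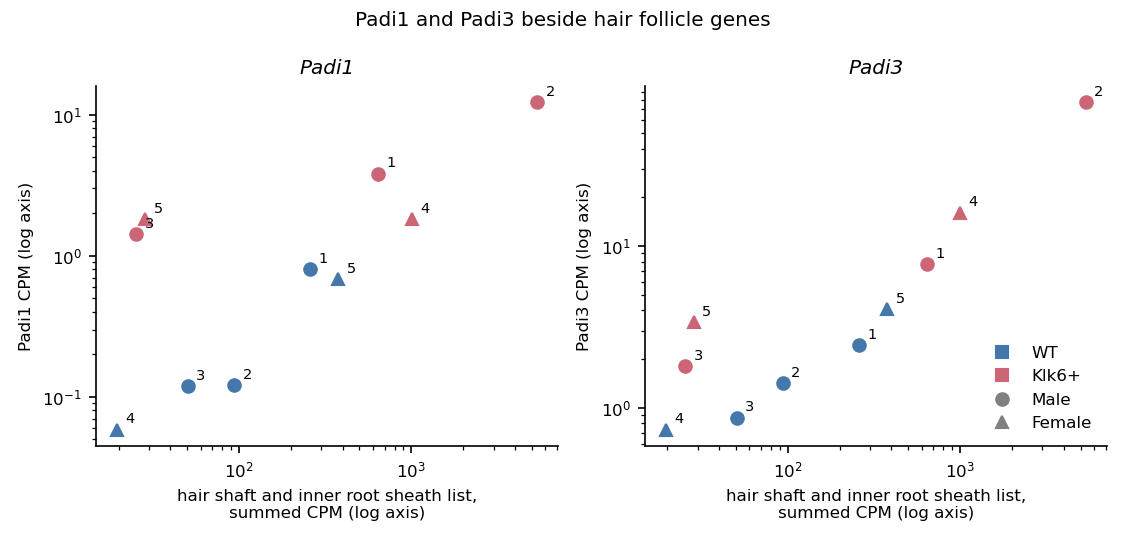
Padi1 (left) and Padi3 (right) in CPM against the summed CPM of 12 hair follicle genes, on log axes; each point is a library, labelled with its number. In Klk6+ 3 and Klk6+ 5 the hair sums of 25.3 and 28.5 lie within the WT range. Padi1 is at 1.42 and 1.83 CPM there, above its WT maximum of 0.804. Padi3 is at 1.82 and 3.39 CPM, within its WT range of 0.732 to 4.09.

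The other genes of the family that fuse an S100-like domain to repeats are Tchh, encoding trichohyalin of the hair root sheath, Tchhl1 and Crnn, encoding cornulin. None of the 3 was called: the log2 fold changes were 2.61 (adjusted p = 0.114), 2.43 (adjusted p = 0.110) and 2.66 (adjusted p = 0.0653, edgeR). Klk6+ 2 was far above the other libraries in each, at 1495 CPM for Tchh, and without that library the log2 fold changes were 0.57 (adjusted p = 0.605), 0.0636 (adjusted p = 0.951) and 0.82 (adjusted p = 0.344). Without WT 5 all 3 were called, at 3.73, 3.44 and 3.80 (adjusted p = 0.0298, 0.0367 and 0.0131), and Crnn was also called without Klk6+ 3 or Klk6+ 5. The deviations of Tchhl1 and Crnn followed the hair list, with r of 0.87 and 0.91 over 10 libraries. Tchh is itself in the hair list, so its r of 0.98 is in part with itself. In the calpain list, Capn12, a calpain of the hair follicle, rose by 3.53, Capn2 by 0.71 and Cast, the calpain inhibitor calpastatin, by 0.43 on the log2 scale, while Capns2 fell by 0.59. Capn12 was low in WT, on 13 to 49 reads, and ran from 1.65 to 3.80 under the alternative settings. The call of Cast was lost without Klk6+ 5 (adjusted p = 0.0514). Capns1, the small subunit that pairs with Capn1, was at -0.00 and was not called.

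Proteases and inhibitors that act on profilaggrin or on the enzymes that cut it were mostly higher. Of 11, 10 were called higher and 1 lower, beside 37.7% and 35.1% of all genes. The median log2 fold change of the 11 was 1.62 against 0.04 over all genes. Klk14 rose by 5.65 and Klk7 by 2.76, both kallikreins of the cornified layer, and Klk5 by 1.42. Klk14 was low in WT, at 0.119 to 0.626 CPM on 4 to 26 reads. Its value ran from 3.58 to 5.88 under the alternative settings. The membrane proteases St14 (matriptase), Prss8 (prostasin) and Tmprss13 rose by 1.82, 1.62 and 1.64. Furin, a proprotein convertase, rose by 1.09, while Pcsk6, another convertase, fell by 1.44. The inhibitors Spint1 and Cst6 rose by 2.27 and 1.17. Spink5, which encodes the kallikrein inhibitor LEKTI, was called at 0.71 (adjusted p = 0.0483), and 17 of 22 alternative settings lost the call, with adjusted p up to 0.170. Downstream of amino acid release, Ggct, a gamma-glutamyl cyclotransferase, rose by 2.25 and Uroc1, the urocanase, by 3.53 from at most 0.0897 CPM in WT. Hal, the histidase that makes urocanic acid, stood at 0.38 and was not called.

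Of 22 granular and cornified layer genes, 13 were called higher and 5 lower, beside 37.7% and 35.1% of all genes. The median log2 fold change of the 22 was 0.84. Cnfn, encoding cornifelin, rose by 4.17 and Tgm1, the envelope transglutaminase, by 3.35. Lce1m, a late cornified envelope gene and a neighbour of Flg2, fell by 4.42, from 328 to 935 CPM in WT to 15.1 to 62.4 in Klk6+, and was at -5.05 without Klk6+ 5. Sbsn (0.32) and Kprp (0.24) were not called, although Sbsn was called on FPKM (adjusted p = 0.00748, limma-trend). Of 20 regulators of late differentiation, 13 were called higher and 3 lower, beside the same shares of all genes. Grhl3, Ovol1 and Cebpb, transcription factors of the differentiating epidermis, rose by 2.64, 2.37 and 1.86, and Nr3c1, the glucocorticoid receptor, fell by 1.36. Klf4 (0.14) and Rora (-0.15) were not called.

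Up to 3 protein-coding genes on each side of the members were also read. Of 27 such neighbours that were tested, 14 were called higher and 8 lower, beside 37.7% and 35.1% of all genes, with log2 fold changes from -4.42 for Lce1m to 3.51. S100a11, beyond the end of the family cluster, rose by 0.97. Next to Asprv1, Mxd1, a MYC antagonist, rose by 2.64 and Pcbp1, an RNA-binding protein gene, by 0.73. Next to Blmh, Tmigd1 rose by 3.51, from 2.74 ± 0.74 to 30.8 ± 7.8 CPM (SD, n = 5), and Slc6a4, the serotonin transporter, fell by 0.89.

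Across libraries of a genotype the genes other than Padi1 varied together. Over 10 libraries, the 21 pairs without Padi1 had Pearson r of deviations from 0.72 to 0.97, and the 7 pairs with Padi1 from -0.17 to 0.08. Within WT the 21 pairs had r from 0.903 to 0.995, and within Klk6+ from 0.45 to 0.96. In WT the 2 females, WT 4 and WT 5, were the lowest libraries for all 7 of these genes. They were also the lowest WT libraries for the keratinocyte sum, at 8123 and 5228 CPM. The same held for the sum of the granular and cornified layer genes, at 12535 and 8289 CPM. No r was taken over pairs of other genes, so the shared variation is not shown to be particular to these 7. In Klk6+, the females stood at opposite ends for Flg2, Hrnr, Rptn, Asprv1 and Blmh, with Klk6+ 4 lowest and Klk6+ 5 highest.

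**Figure D5:**
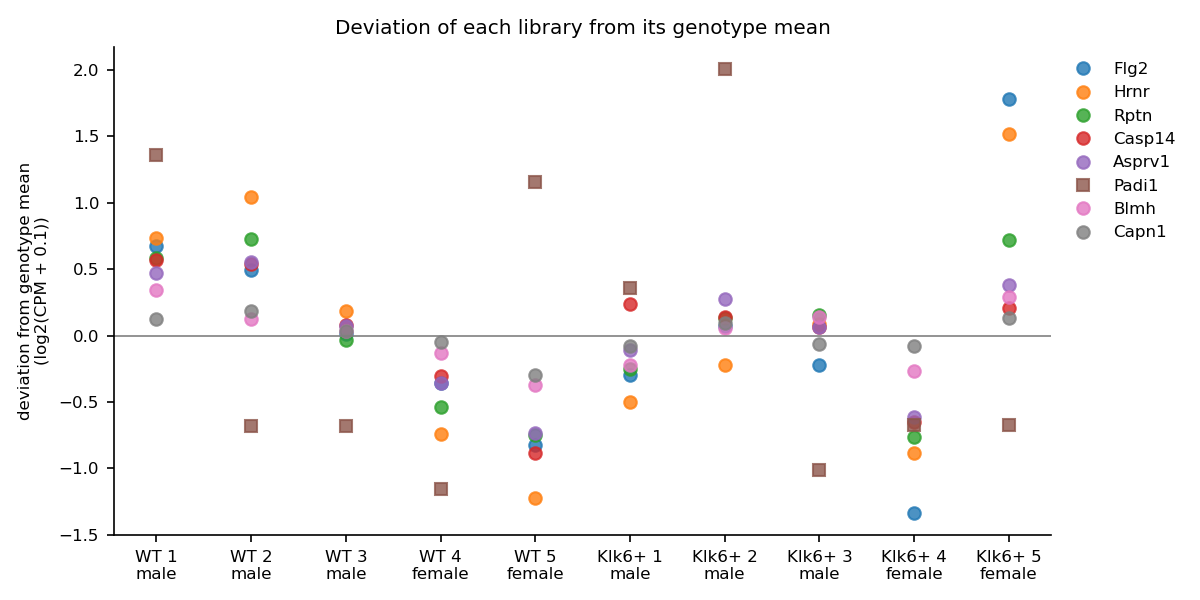
Deviation of each library from its genotype mean, on log2(CPM + 0.1), for the 8 genes; squares mark Padi1. In WT the 7 other genes run together from WT 1 and WT 2 down to WT 5, and Klk6+ 4 and Klk6+ 5 lie at opposite ends for Flg2 and Hrnr.

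The genes whose deviations were most like those of Flg2 over the 10 libraries were Cobl (r = 0.98), Fcgbp (r = 0.98) and Bmpr1b (r = 0.98). All 3 fell, as Flg2 did, by 2.76, 3.63 and 0.73 on the log2 scale, the call of Bmpr1b (adjusted p = 0.0362) being lost in 7 of the 10 fits that left out a library. Without Klk6+ 5, Cobl was at -3.42 and Fcgbp at -4.32. Those most like Rptn were Mid2 (r = 0.98), Tmprss11f (r = 0.97) and Thop1 (r = 0.97). Mid2 rose by 0.60 and Thop1 by 1.41, against 5.67 for Rptn, and Tmprss11f, at -0.12, was not called, although it was called lower without Klk6+ 5 (-0.62, adjusted p = 0.0175).

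Within each sex, Flg2 was called lower and Rptn, Casp14, Asprv1 and Blmh higher. In males 64.4% of all genes were called (33.4% higher and 31% lower), and in females 59.6% (31.2% higher and 28.4% lower), with 5 of the 8 genes higher and 1 lower in each. The log2 difference of Flg2 in males was -5.17 ± 0.70 (SE, adjusted p = 0.000214, edgeR) and was -3.10 ± 0.77 (adjusted p = 0.00735) in females. The value in females was -5.45 without Klk6+ 5 and -2.32 without Klk6+ 4, where the lone Klk6+ female is assumed to vary like the other groups. Hrnr stood at 1.13 ± 0.50 in males (adjusted p = 0.0768, not called) and at 3.75 ± 0.68 in females (adjusted p = 0.0014), and the value in females was 2.03 without Klk6+ 5 and 4.43 without Klk6+ 4. In males Hrnr was called with DESeq2 (adjusted p = 0.0418) and, since the spread is shared, without Klk6+ 4 or Klk6+ 5, both females (adjusted p = 0.00587 and 0.00576). Padi1 was called in males (4.01, adjusted p = 0.00848) and not in females (2.28, adjusted p = 0.148). With 1 library left out its value ran from 2.87 to 5.53 in males, called throughout, and from 1.40 to 4.85 in females, not called in any.

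The difference between the sexes was tested as an interaction, female minus male. No gene was called with edgeR, 0% of those tested, although 1410 genes, 2 of the 8 among them, had an unadjusted p below 0.05. Hrnr had an interaction of 2.62 ± 0.80 (SE, unadjusted p = 0.00972, adjusted p = 0.351), and DESeq2 called it (adjusted p = 0.0462). Without Klk6+ 5 it was 0.96. Rptn had 1.25 (unadjusted p = 0.0495, adjusted p = 0.525), which became 0.32 without Klk6+ 5, and Flg2 had 2.07 (adjusted p = 0.534), which became -0.22.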

How the data were processed

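PolyA RNA-seq of whole skin from 10 mice was deposited as a table per mouse, with read counts and FPKM per gene. The counts are raw and the FPKM values are length-scaled by the authors, from the values and headers; the submitters' processing notes name TopHat2, SAMtools, HTSeq and Cufflinks 2.2.1 with GRCm38 (mm10), without roles. The kit does not mark strand, and no source used here states the strand setting or how multi-mapping reads were counted. Genes and lists were chosen with earlier results of these data known.

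Counts of genes passing filterByExpr (minimum count 10, 14861 genes) were scaled by TMM and fitted with edgeR 4.0.16 (quasi-likelihood test, sex and genotype), with SE as the log2 fold change divided by the square root of F. Calls used a Benjamini-Hochberg adjusted p under 0.05. CPM used TMM-scaled library sizes. Males, females and the interaction came from a fit of 4 means. Ratios of counts were tested by exact permutation over 252 assignments. The planned reference for them was Flg, so Krt1, a suprabasal keratin, took its place, and Hrnr was added after seeing the data. Alternatives used DESeq2 1.42.0, limma 3.58.1, other scalings and filters, FPKM with pseudocounts 0.1 and 1, and leaving out each library. The script was tested on simulated data. Replicate numbers follow accession order and pair nothing. P-values measure the spread between these mice. Named genes were all members, all genes of the short lists, the 4 with the smallest p and the 2 highest uncalled in longer lists, the 3 most like Flg2 and Rptn, and neighbours. Promoters are from RefSeq and positions and repeats from GENCODE M21.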

Additional observations from a re-analysis of the deposited data

Results flagged for a closer look

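In 28 groups of 5 libraries that were examined, the library farthest from the others was compared with the group's range by Dixon's test (critical value 0.71), which chance passes in about 1 of 20 groups. In Klk6+ 5, Flg2 (85.8 CPM) and Hrnr (1687 CPM) were far above the other Klk6+ libraries, and in Klk6+ 4, Casp14 (274 CPM) was far below. In Klk6+ 2, Padi1 (12.2 CPM), Padi3 (77.4 CPM), Padi4 (22.3 CPM), Tchh (1495 CPM), Tchhl1 (55.7 CPM) and Crnn (52.5 CPM) were far above. The hair list, which includes Tchh, summed to 5382 CPM in that library, the highest of the 10, and its part in these values was not tested.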

How the results depend on the processing

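The 6 genes called higher and the 1 called lower kept those counts under all 22 alternatives. Capn1 changed sign with DESeq2 (-0.000441), RLE factors (-0.000215), library totals only (-0.0157), upper-quartile factors (-0.0631), scaling without muscle, hair and adipocyte genes (-0.0171) and without Klk6+ 2 and Klk6+ 5 together (-0.0405), an alternative chosen after seeing the data, and it ran from -0.0897 to 0.0708 with 1 library left out. Capns1 turned positive on log2(FPKM + 0.1) and log2(FPKM + 1) (0.00847 and 0.0084), with no low-count filter (0.0108) and without those 2 libraries (0.0327), and ran from -0.0769 to 0.0229 with 1 left out. Without those 2, Kprp was -0.23 and Klf4 -0.21; with 1 left out, Kprp ran from -0.20 to 0.48, Klf4 from -0.14 to 0.42 and Tmprss11f from -0.62 to 0.0508. The interaction ran from -0.22 to 2.91 for Flg2 and from -3.27 to 0.86 for Padi1 with 1 left out. DESeq2 called 82 genes higher and 179 lower in the interaction, 1 of them a gene of this family (Hrnr); with 1 library left out edgeR called 0 to 2 in each direction. The log2 difference of Asprv1 relative to Hrnr was 0.0144. The cause of these changes was not tested. No paired analysis was possible because the labels carry no replicate numbers. Depth limits Padi1, with 2 to 35 reads per WT library.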

Other observations

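The length that the deposited counts and FPKM imply together was taken as CPM on total counts, without TMM, over FPKM. For Flg2 it was 8838 bases in the median WT library and 8474 in the median Klk6+ library. The other genes were also lower in Klk6+, with 12373 and 11863 for Hrnr and 1573 and 1509 for Asprv1. Taken over both genotypes the Flg2 length was 1.24 times its longest coding transcript of 7011 bases, while its annotated exons span 20803 bases in all. For Hrnr the factor was 1.09, for Rptn 1.11, for Asprv1 0.998 and for Blmh 1.002. The implied lengths of Hrnr and Rptn also exceeded their transcripts of 11187 and 4146 bases, which hold all their annotated exon bases. The length model behind Flg2 FPKM therefore cannot be read from its factor. For Padi1 the factor was 0.714, over the 7 libraries with enough reads.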
